A study of Mus musculus with 12 samples.

Results

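Setdb1 was knocked down in mouse embryonic stem cells grown in 2i, and the 3 knockdown libraries were compared with 3 control libraries from the same medium. These 6 libraries were taken by the medium and short hairpin RNA named in their labels, from 12 libraries in all. The cells were the E14 line of strain 129/Ola, kept on gelatin without feeder cells. 2i is a serum-free mixture of DMEM/F-12 and neurobasal medium with N2, B27, the cytokine LIF, PD0325901, which inhibits MEK, and CHIR99021, which inhibits GSK3. Both groups were infected with a lentiviral pLKO.1 vector, which carried a hairpin labelled shSetdb1 in the knockdown and one labelled shScr in the control, and no other allele or agent is named. Puromycin was given at 1 µg/ml from 48 h after infection, and the cells were collected after 3 days of selection. The other 6 libraries carry the same 2 hairpins in medium with serum and LIF, and were used only where a change in 2i was set against a change in serum. The labels name 1 hairpin for each arm and no rescue, so an off-target effect of the hairpin and an effect of Setdb1 loss cannot be told apart. They do not say whether replicates came from separate infections, so the p-values measure the spread between these libraries, which may be technical.

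SETDB1 is a methyltransferase that places 3 methyl groups on lysine 9 of histone H3. It is brought to DNA by KRAB zinc finger proteins through their partner TRIM28, and in mouse embryonic stem cells it is known for keeping endogenous retroviruses silent. These elements consist of an internal part that encodes retroviral proteins, named with the ending "-int" in the repeat annotation, between 2 long terminal repeats (LTRs) that hold the promoter. The mark also lies over some germ cell genes and over gene clusters that stem cells do not use.

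The deposited gene and repeat tables give 26061 genes and 1217 repeat families on a log2-like scale, from which whole read counts were recovered. Features with a mean less than 0.5 log2 units over their table's minimum were not tested. Gene reads ran from 4821181 to 15509401 per library of 2i, with knockdown replicate 3 the shallowest, and repeat reads from 4407665 to 8962913. Values below are normalised reads, that is reads divided by each library's size factor, which evens out depth. They are not per length, so they compare libraries and not genes with each other. A value alone in parentheses after a gene or family is its log2 change, knockdown minus control, on the deposited scale. Structural RNA and tRNA took 32.1, 38.9 and 64.6% of the repeat reads in the controls and 19.9, 55.5 and 69.5% in the knockdown libraries. Of the 8 stem cell markers found in the table, including Pou5f1, Nanog and Esrrb, none was under 10 reads in all 6 libraries. Their summed level was 36751 to 40959 in the controls and 32359 to 42591 in the knockdown libraries. Of 8 hepatocyte markers 4 were at 0 in all 6 libraries (Alb, Apoa1, Ttr and Serpina1a), and their summed level was 0 to 35.2 in the controls and 0 to 44.6 in the knockdown libraries, most of it Hnf4a. Of 7 macrophage markers 2 were at 0 in all 6 (Lyz2 and Fcgr1). Cd68 carried most of their sum, Itgam had 2.17, 2.76 and 0 in the controls and 13.8, 14.2 and 5.53 in the knockdown libraries, and Emr1 and Csf1r reached 22.1 and 19.4 in knockdown replicate 3. Of 6 spermatid markers 4 were at 0 in all 6 (Prm1, Prm2, Acrv1 and Pgk2), and Ldhc had 19.2 to 66.4 in every library. The part of such cells in the gene results below was not tested.

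Setdb1 itself had 3607, 2724 and 2253 normalised reads in the controls and 837, 610.2 and 340.1 in the knockdown libraries, and all knockdown libraries lay below all controls (log2 change −2.24 ± 0.33 SE, limma adjusted p = 0.00173).

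Among repeats, the families that rose were mostly endogenous retroviruses of a few groups. Of 1097 families tested, 114 rose (10.4%) and LTR50 alone fell (0.0912%), with limma at an adjusted p under 0.05. All knockdown libraries exceeded all controls for 22.3% of families and lay below them for 1.46%. The median change of all families was 0.24 on the log2 scale, and 70.5% were positive, so each group below is read against that shift. In bulk RNA a larger share of expressing cells and more RNA per cell cannot be told apart. The number that passed depends on how libraries are scaled. After centring each library on its median 67 rose and 25 fell, and after quantile normalisation 74 and 82. Voom with limma on the recovered reads gave 70 and 11 with TMM factors and 98 and 0 with the size factors of the table. The size factors of the gene table gave 337 and 0, and leaving out structural RNA 93 and 32. Over these 6 scalings the median of all families ran from −0.12 to 0.62. In all of them 61 of the 114 families rose. Of the 114, 64 rose without any 1 library, and without control replicate 1 the count of families that passed was 71.

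**Figure D1:**
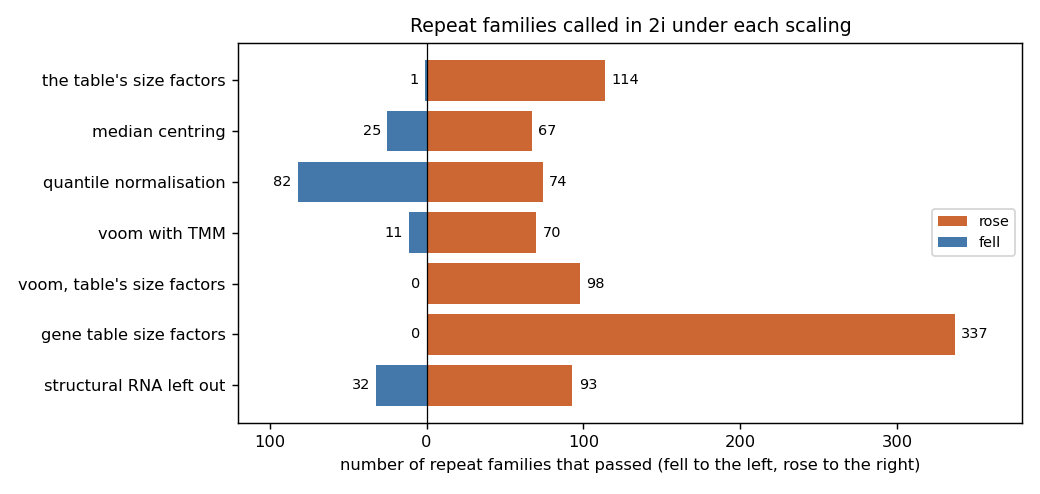
Number of repeat families that passed in 2i under 7 scalings of the same reads, with falls as bars to the left of 0 and rises as bars to the right. Rises run from 67 to 337 and falls from 0 to 82, and the split at the top (114 and 1) belongs to the size factors of the deposited table.

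Intracisternal A particles (IAPs), among the most active retroviruses of the mouse genome, had the highest median of the repeat groups. Of 16 IAP families 15 rose, with a median log2 change of 2.58. The internal part IAPEz-int had 9032, 14830.1 and 9789 normalised reads in the controls and 183625, 175701 and 215061 in the knockdown libraries, and the groups were far apart, a 17.1-fold difference (log2 change 4.12 ± 0.31 SE, limma adjusted p = 2.62e-07). Its LTR, IAPLTR1_Mm, had 807, 1231 and 722 normalised reads in the controls and 11702, 11333 and 16029 in the knockdown libraries, 14.2-fold more (log2 change 3.81 ± 0.27 SE, limma adjusted p = 1.64e-07). As a share of repeat reads without structural RNA, which uses no size factor, IAPEz-int took 0.333, 0.567 and 0.336% in the controls and 3.63, 4.80 and 5.90% in the knockdown libraries. For all IAP families together these shares were 0.471, 0.824 and 0.550% against 4.37, 6.30 and 7.24%. Knockdown libraries stood above the controls on this scale too.

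Other IAP families rose in proportions that differed between libraries. IAPEy-int had 106, 839.8 and 586 normalised reads in the controls and 2855, 17837 and 6118 in the knockdown libraries, highest in replicate 2 of each group, with no overlap (log2 change 4.06 ± 0.66 SE, limma adjusted p = 0.000483). The ratio of means was 17.5-fold, and 8.79-fold without knockdown replicate 2. IAPLTR3-int had 73.5, 149 and 16.2 normalised reads in the controls and 957, 644 and 629 in the knockdown libraries and did not overlap (log2 change 3.17 ± 0.50 SE, limma adjusted p = 0.000399). The LTRs IAPLTR2_Mm, IAPLTR2a, IAPLTR2b and IAPLTR3 had log2 changes of 2.99, 2.88, 2.31 and 2.49. IAPEY_LTR was the family whose groups overlapped, with 271, 418 and 868 normalised reads in the controls and 662, 3471 and 1952 in the knockdown libraries, and its call was lost without control replicate 1 or 2 or knockdown replicate 2 or 3 (adjusted p 0.0718 to 0.168). IAPLTR4 did not pass, at 1.03 (limma adjusted p = 0.12). The median of the list stayed between 2.23 and 3.02 over the scalings, and 12 of its families rose under all 6.

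The IAP element was also where the test of the difference between 2i and serum was passed. IAPEz-int changed by 1.84 in serum and IAPLTR1_Mm by 1.43, so that the difference between the media was 2.28 ± 0.44 SE and 2.38 ± 0.38 SE (limma adjusted p = 0.0488 and 0.0110). They were the 2 of 1097 families that passed this test (0.182%). With the size factors of the gene table, which are independent of the repeat reads, the differences were 2.81 and 2.91 (limma adjusted p = 0.0349 and 0.0275). The median difference of all families was 0.31 with the deposited size factors and 0.74 with those of the gene table, so these larger values include a wider shift. That median was 0.014 after median centring, 0.018 after quantile normalisation, 0.027 by voom with TMM factors and 0.017 without structural RNA. Both calls were lost after median centring (1.99 and 2.08, adjusted p = 0.305 and 0.235), quantile normalisation (1.83 and 1.95, adjusted p = 0.255 and 0.200), voom with TMM factors (1.96 and 2.09, adjusted p = 0.334 and 0.311) and without structural RNA (1.96 and 2.07, adjusted p = 0.196 for both). In 2i the call of IAPEz-int was lost without control replicate 1 or 3 (adjusted p = 0.281 and 0.147) or knockdown replicate 2 or 3 (0.0729 and 0.0853), and in serum without any library but knockdown replicate 3 (0.152 to 0.254). That of IAPLTR1_Mm was lost without control replicate 1 of 2i (0.0539) and, in serum, without control replicate 1 or 3 (0.0611 and 0.0509) or knockdown replicate 1 or 2 (0.0566 and 0.0557). The difference stayed positive in each of these settings. With a replicate block within medium 21 families passed, these 2 among them.

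MMERVK10C, a class II retrovirus whose LTRs are the RLTR10 families, rose in every member: 9 of 9, with a median of 2.12. MMERVK10C-int had 1457, 1757 and 1468 normalised reads in the controls and 31348, 5482 and 7966 in the knockdown libraries (log2 change 2.82 ± 0.47 SE, limma adjusted p = 0.000534). Knockdown replicate 1 was far above the other two, and all 3 exceeded the controls. The ratio of means was 9.57-fold, and 4.31-fold without that library. RLTR10B2 had 78.9, 80.1 and 206 normalised reads in the controls and 835, 608 and 1469 in the knockdown libraries (log2 change 2.81 ± 0.40 SE, limma adjusted p = 0.000199), here highest in replicate 3, while RLTR10C (2.23) and RLTR10B (2.12) were highest in replicate 1. These 9 families rose under all 6 scalings and without any 1 library. In serum 7 of the 9 passed, with a median of 2.32.

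MMERGLN is a gammaretrovirus-like element whose LTRs are the RLTR1 families, and 6 of its 6 families rose (median 1.57). MMERGLN-int had 1059, 2064 and 1386 normalised reads in the controls and 78531, 27016 and 30974 in the knockdown libraries (log2 change 4.78 ± 0.47 SE, limma adjusted p = 7.49e-06), the largest log2 change among repeat families. The ratio of means was 30.3-fold, and 19.3-fold without knockdown replicate 1. RLTR1B had 649, 929 and 1819 normalised reads in the controls and 9713, 10074 and 18054 in the knockdown libraries (log2 change 3.52 ± 0.35 SE, limma adjusted p = 7.49e-06), and its groups were as clearly apart. RLTR1B-int changed less, from 16739.6, 19496 and 15553 to 105855, 44902 and 33272 normalised reads (1.65), and RLTR1D by 1.49. The call of RLTR1C (0.93) was lost without control replicate 1, 2 or 3 or knockdown replicate 1 or 2 (adjusted p 0.0669 to 0.147).

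**Figure D2:**
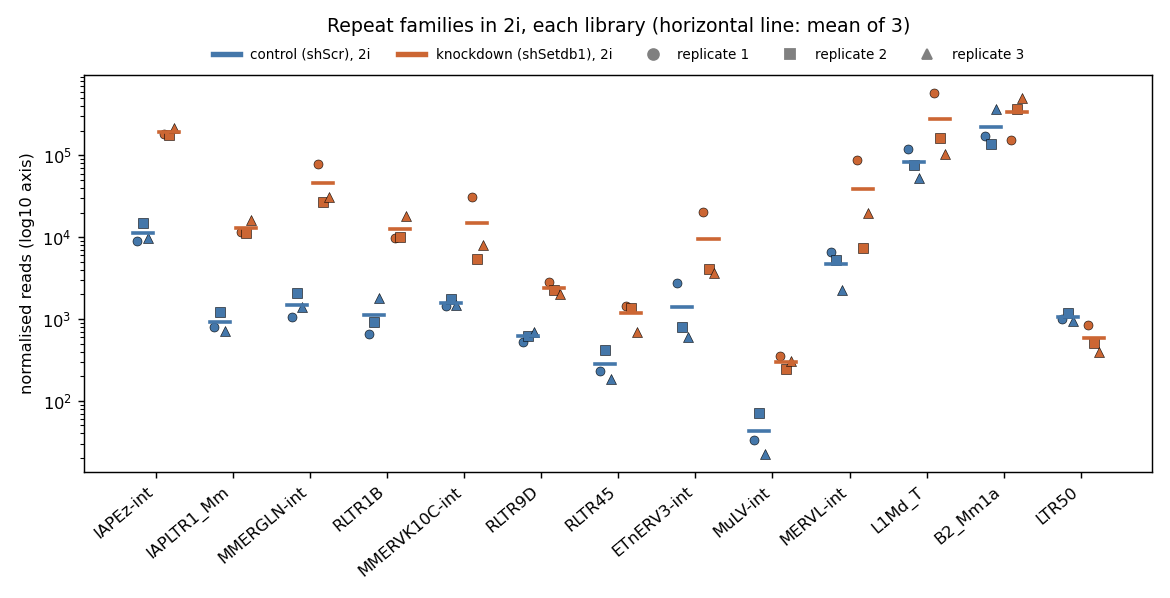
Normalised reads of 13 repeat families in each library of 2i on a log10 axis, with controls in blue, knockdown in orange, the replicate given by the symbol and the mean of 3 as a line. The groups are apart for the families from IAPEz-int to MERVL-int, overlap for L1Md_T and B2_Mm1a, and are reversed for LTR50.

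Further class II LTRs had lower medians than the IAP and MMERVK10C groups. Of 23 RLTR9 and RLTR13 families 16 rose (median 1.29), and 12 did so under every scaling. The 8 RLTR9 families all passed, at up to 1.95 with a median of 1.46, against 8 of the 15 RLTR13 families. RLTR9D had 525, 614 and 697 normalised reads in the controls and 2802, 2279 and 2037 in the knockdown libraries, 3.88-fold more, with a narrow spread in both groups (log2 change 1.91 ± 0.24 SE, limma adjusted p = 8.19e-05). RLTR13D6 had 1001, 976 and 1456 normalised reads in the controls and 3848, 4634 and 4466 in the knockdown libraries (log2 change 1.91 ± 0.25 SE, limma adjusted p = 8.19e-05), RLTR9B2 changed by 1.95 and RLTR9C by 1.86. No library alone decided these calls. A further class II group held MYSERV, SRV, MMTV, RMER4, RMER6, RMER16, RMER17 and the names from RLTR11 to RLTR27 not counted above. Other RMER and RLTR names were outside it. Of its 57 families 10 rose (median 0.54), and 39 did with gene table size factors. RMER16-int had 3201, 4405 and 3465 normalised reads in the controls and 19683, 11393 and 10762 in the knockdown libraries, 3.78-fold more (log2 change 1.87 ± 0.27 SE, limma adjusted p = 0.000198), its LTR RMER16 changed by 1.41, and RLTR21 by 1.46. RLTR27 passed at 1.64 but stood at 1.08 without control replicate 1 (adjusted p = 0.0624).

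RLTR44, RLTR45 and LTR45 families had 7 of 10 that passed (median 1.83), of which 2 rose under every scaling. All 10 changes were positive, and in 8 families all knockdown libraries exceeded all controls. RLTR45-int had 1397, 2216 and 902 normalised reads in the controls and 10145, 4951 and 3750.4 in the knockdown libraries (log2 change 2.01 ± 0.35 SE, limma adjusted p = 0.000846), and its LTR RLTR45 had 229, 422 and 186 normalised reads in the controls and 1445, 1376 and 702 in the knockdown libraries (log2 change 2.00 ± 0.34 SE, limma adjusted p = 0.000569), without overlap in either. LTR45C was seen with 2 reads in the controls, at 1.81, 0 and 0 normalised reads, and with 184, 4.6 and 38.4 after knockdown (2.28). Its call was lost without control replicate 2 or 3 or knockdown replicate 1 (adjusted p 0.0676 to 0.119), and without knockdown replicate 1 the log2 change was 1.44. RLTR44D (1.97) lost its call without control replicate 1 or knockdown replicate 2 (adjusted p 0.0549 to 0.0717).

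Class I retroviruses related to murine leukaemia virus (MuLV) and to VL30, a retrotransposon packaged by MuLV, had 6 of 12 families that passed (median 1.32). All 12 changes were positive, and in 8 families all knockdown libraries exceeded all controls. MuLV-int had 33.6, 70.5 and 22.7 normalised reads in the controls and 356, 247 and 304 in the knockdown libraries (log2 change 2.43 ± 0.32 SE, limma adjusted p = 9.76e-05). The LTRs LTRIS4 and LTRIS3 changed by 1.91 and 1.88, with no overlap. MMVL30-int passed at 1.99, but the groups overlapped, at 714, 804 and 1978 normalised reads in the controls and 1929, 3807 and 10304 in the knockdown libraries, and its call was lost without control replicate 1 or 2 or knockdown replicate 3 (adjusted p 0.0656 to 0.1). The 2 MuRRS families rose. MuRRS4-int had 602, 878 and 699 normalised reads in the controls and 4672, 1957 and 2018 in the knockdown libraries (log2 change 1.85 ± 0.31 SE, limma adjusted p = 0.000566), whereas MuRRS-int passed at 1.36 and lost its call without control replicate 1 or 3 or knockdown replicate 1 (adjusted p 0.118 to 0.14), where without knockdown replicate 1 the change was 0.82.

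ETn and MusD elements, which cause many new insertions in mice, were split. Of 5 families 2 rose, and the median was 0.73. ETnERV3-int had 2793, 798 and 602 normalised reads in the controls and 20363, 4082 and 3672 in the knockdown libraries (log2 change 2.58 ± 0.56 SE, limma adjusted p = 0.00535), with replicate 1 highest in both groups and no overlap. The ratio of means was 6.71-fold, 13.4-fold without control replicate 1 and 2.77-fold without knockdown replicate 1. ETnERV2-int passed at 1.41 and lost its call without control replicate 1, 2 or 3 or knockdown replicate 1 or 2 (adjusted p 0.056 to 0.201). MMETn-int had 107005, 90899.6 and 30290.2 normalised reads in the controls and 261537, 99539.5 and 49691 in the knockdown libraries and overlapped (0.71, limma adjusted p = 0.538), and so did the LTR RLTRETN_Mm (0.73).

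MERVL, the retrovirus whose LTR MT2_Mm drives transcripts of the 2-cell embryo, was uneven between libraries. MERVL-int had 6636, 5193 and 2285 normalised reads in the controls and 88703, 7284 and 19654 in the knockdown libraries (log2 change 2.44 ± 0.66 SE, limma adjusted p = 0.0271), so that knockdown replicate 1 was far above, and replicate 2 only just above, the highest control. Its call was lost without control replicate 2 or 3 or knockdown replicate 1 (limma adjusted p 0.05 to 0.11), and without knockdown replicate 1 the change was 1.48. In serum MERVL-int had 91524, 134110 and 93601 normalised reads in the controls and 59424, 120604 and 44884 in the knockdown libraries (−0.61). The difference between the media, 3.05 ± 0.93 SE, was larger than for IAPEz-int and did not pass (limma adjusted p = 0.445). MT2_Mm had 2810.3, 2445 and 1673 normalised reads in the controls and 21226, 2937 and 5186 in the knockdown libraries and did not pass (limma adjusted p = 0.088). MT2C_Mm passed at 0.93 and lost its call without control replicate 1, 2 or 3 or knockdown replicate 1 (adjusted p 0.0602 to 0.119). Of the 7 families of this group 2 rose, and the median of 0.37 ran from −0.14 to 0.83 over the scalings, changing sign.

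Among MaLR elements, which have LTRs but no coding internal part, 5 of 45 MT and ORR1 families rose (median 0.38, from −0.11 to 0.81 over the scalings), and 32 did with gene table size factors. All 5 were ORR1 families. ORR1A1-int had 2083, 1779.9 and 1454 normalised reads in the controls and 13161, 5623 and 3062 in the knockdown libraries (log2 change 1.79 ± 0.41 SE, limma adjusted p = 0.00876), and ORR1A0 had 2531, 1867 and 1617 normalised reads in the controls and 7599, 5583 and 3838 in the knockdown libraries (log2 change 1.46 ± 0.32 SE, limma adjusted p = 0.00535). Knockdown replicate 1 was the highest library for both and control replicate 3 the lowest. The medians were 0.72 for 10 ORR1A families, 0.42 for 4 ORR1B, 0.60 for 4 ORR1C and 0.33 for 7 ORR1D to ORR1G families, a description in which neighbours were not tested against each other. ORR1A1 (0.96) and ORR1C1-int (0.93) lost their calls without any of the 3 controls and without knockdown replicate 1 (adjusted p 0.0561 to 0.109), and ORR1A1 also without knockdown replicate 2 (0.0523). In the older MLT1 group 1 of 48 rose, MLT1E3 at 1.04, a call lost without control replicate 2 or 3 or knockdown replicate 3 (adjusted p 0.0522 to 0.0882). The median of that group was 0.28 and changed sign with the scaling, from −0.10 to 0.64.

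LINE-1 elements, which copy themselves without LTRs, had a higher median in the young L1Md families than in the older ones, a difference not tested. The 6 L1Md families had a median of 1.33, and 0 of 6 passed with the deposited size factors of the repeats. With gene table size factors, 5 of 6 rose, and by voom with the table's factors 1 did. L1Md_T had 118871, 76808 and 53355 normalised reads in the controls and 575000, 162248 and 102498 in the knockdown libraries and overlapped (1.43, limma adjusted p = 0.199), and without knockdown replicate 1 its change was 0.71. L1Md families took 9.05, 6.52 and 4.81% of repeat reads without structural RNA in the controls and 21.4, 9.04 and 6.62% in the knockdown libraries. Of 27 other rodent L1 families 7 rose (median 0.80, from 0.29 to 1.26 over the scalings), and 2 to 22 under the other scalings. Lx3_Mus had 645, 1142 and 992 normalised reads in the controls and 2631, 1859 and 2218 in the knockdown libraries (log2 change 1.27 ± 0.28 SE, limma adjusted p = 0.00527), and Lx3C changed by 1.12, a call lost without control replicate 1 (adjusted p = 0.0575). Lx (0.99) lost its call without any 1 of 5 libraries and Lx2A1 (0.92) without any 1 of the 6 (adjusted p 0.0514 to 0.179). Of 75 older L1 families L1M3d rose (1.44), a call lost without control replicate 2 or 3 or knockdown replicate 1 or 3 (adjusted p 0.0522 to 0.141), and their median of 0.21 changed sign with the scaling, from −0.19 to 0.62. In that older group 29 rose with gene table size factors and 8 fell under quantile normalisation.

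SINEs, short elements that borrow the LINE-1 machinery, DNA transposons, satellites and structural RNA make up the remaining classes. None of 32 SINE families passed (median 0.00, from −0.46 to 0.46 over the scalings). B2_Mm1a, the SINE with most reads, had 171463, 136457 and 366861 normalised reads in the controls and 155807, 366736 and 500130 in the knockdown libraries. None of 79 DNA transposon families passed (median 0.11), and the one with most reads, FordPrefect, stood at 0.16. None of 6 satellite families passed (median 0.50, from 0.15 to 0.74 over the scalings). Their changes were all positive and ran from 0.09 to 1.62, and MMSAT4 stood at 0.09. Under quantile normalisation 10 SINE and 6 DNA transposon families fell, and gene table size factors gave 1 SINE and 7 DNA transposon families that rose. Of 77 structural RNA and tRNA families 2 rose, 4.5SRNA (1.48) and tRNA-Leu-CTG (1.54). The first lost its call without control replicate 1 or 2 or knockdown replicate 1 (adjusted p 0.0609 to 0.148) and the second without control replicate 3 or knockdown replicate 2 (adjusted p 0.0575 to 0.0722). Of 254 simple repeats (TAGTG)n and (ATATG)n rose (1.90 and 1.37), and each lost its call without 4 of the 6 libraries (adjusted p 0.0579 to 0.206). The calls among simple repeats turned with the scaling: 36 fell under quantile normalisation, 17 without structural RNA, 14 after median centring and 6 by voom with TMM factors, whereas 25 rose with gene table size factors. Of the 2 families of MURVY, a retrovirus of the Y chromosome, MURVY-int rose from 29, 89.8 and 37.8 to 402, 116 and 139 normalised reads (1.62), a call lost without control replicate 1 or 3 or knockdown replicate 1 (adjusted p 0.0784 to 0.123).

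Of 299 families outside these groups 20 rose and 1 fell. BGLII had 1387, 901 and 1766 normalised reads in the controls and 5783, 3878 and 4040 in the knockdown libraries, 3.38-fold more (log2 change 1.77 ± 0.27 SE, limma adjusted p = 0.000327). RLTR5_Mm changed by 1.77, RMER3D-int by 1.69 and LTR81B by 2.18, each without overlap. LTR50 had 995, 1192 and 955 normalised reads in the controls and 844, 512 and 398 in the knockdown libraries (log2 change −0.88 ± 0.26 SE, limma adjusted p = 0.0432). All knockdown libraries were below all controls, but the call was lost without control replicate 1, 2 or 3 or knockdown replicate 2 or 3 (adjusted p 0.0784 to 0.133).

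**Figure D3:**
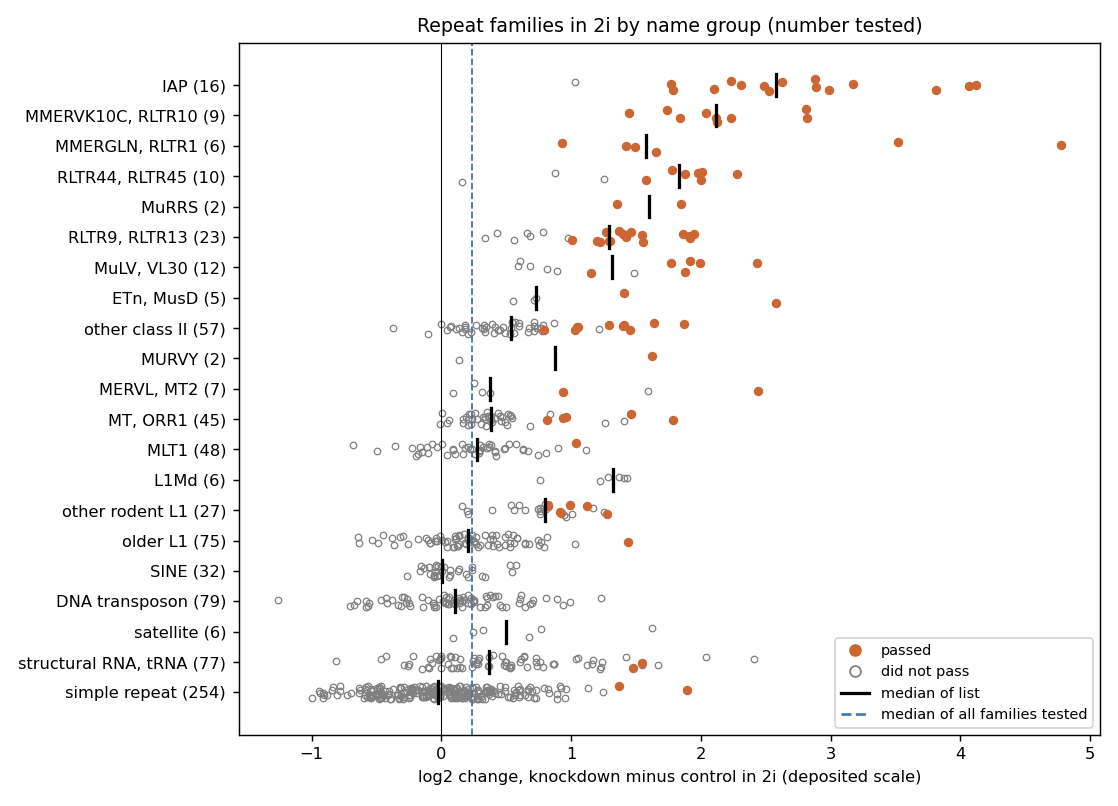
Log2 change in 2i of each repeat family tested, by name group, with families that passed filled, the group median as a black bar and the median of all families (0.24) as a dashed line. IAP families have the highest median (2.58), the single highest point is MMERGLN-int at 4.78, SINE families lie around 0 (median 0.00), and L1Md families lie around a median of 1.33 with none filled.

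Calls were made among internal parts and among LTRs. In the 11 retroviral and MaLR groups 27 of 60 internal families rose (median 0.90) and 53 of 132 LTR families (median 0.73). Of the 114 risers 69 had their highest value in knockdown replicate 1, 20 in replicate 2 and 25 in replicate 3. Of the 114, 35 also rose in serum, which is 30.7% of those in 2i and 97.2% of the 36 that rose in serum (3.28% of families). The overlap was not tested.

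Among genes, 176 of 14487 tested rose in 2i (1.21%) and 8 fell (0.0552%), Setdb1 included. In 20 risers no control read was found, and 71 more had a control mean under 10 normalised reads. Such genes enter the test only through libraries where they are high. These counts, and the counts and medians over tested members of the lists below, therefore partly follow from the filter on low values and are descriptions. For such genes, the p-values printed below and the calls kept or lost without 1 library were computed after the same filter. They are descriptions as well. Knockdown replicate 3, the shallowest library, held the highest value for 107 of the 176, replicate 1 for 52 and replicate 2 for 17, and its part in the calls was not tested other than by leaving it out. The count that passed was 99 without control replicate 1, 111 without control replicate 2 and 104 without knockdown replicate 3, against 184 with all libraries. It was 102 with voom and TMM factors and 88 with the 6 libraries of 2i alone. Of the risers 79 kept their call without any 1 library. The median change of all genes was 0.01. All knockdown libraries exceeded all controls for 6.33% of genes tested and lay below them for 4.33%.

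Some genes that were already transcribed in control cells rose as well, and these are among the risers with most reads. Not all of their calls held when 1 library was left out. Epcam, an adhesion molecule of epithelial and stem cells, had 588, 503 and 570.4 normalised reads in the controls and 4187, 2995 and 3028 in the knockdown libraries, 6.14-fold more (log2 change 2.51 ± 0.35 SE, limma adjusted p = 0.00109). Its groups had a narrow spread and no overlap. BC016423 had 577, 859 and 239 normalised reads in the controls and 8782, 3732 and 4048 in the knockdown libraries (log2 change 3.25 ± 0.54 SE, limma adjusted p = 0.00441). Hltf, a DNA helicase and ubiquitin ligase of replication fork repair, had 1968, 1180 and 939 normalised reads in the controls and 6243, 3779 and 3133 in the knockdown libraries (1.66), and its call was lost without control replicate 2 or 3 or knockdown replicate 1 or 2 (adjusted p 0.0796 to 0.184). The zinc finger genes Gm13251 (Zfp992) and Gm13139 (Zfp991) had 3929, 3809 and 3501 and 2878, 2915 and 2541 normalised reads after knockdown against 1477, 1744 and 1606 and 1205, 1261 and 1254 in the controls. These are differences of 2.33-fold and 2.24-fold with little spread. Gm13251 lost its call without any 1 of the 6 libraries (adjusted p 0.0559 to 0.173) and Gm13139 without control replicate 1, 2 or 3 or knockdown replicate 2 or 3 (adjusted p 0.0532 to 0.132). Pramef8 (Pramel12), of a gene family active in germ cells and early embryos, had 334, 511 and 349 normalised reads in the controls and 2176, 2192 and 1899.8 in the knockdown libraries and kept its call without any 1 library (log2 change 2.30 ± 0.27 SE, limma adjusted p = 0.000224).

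**Figure D4:**
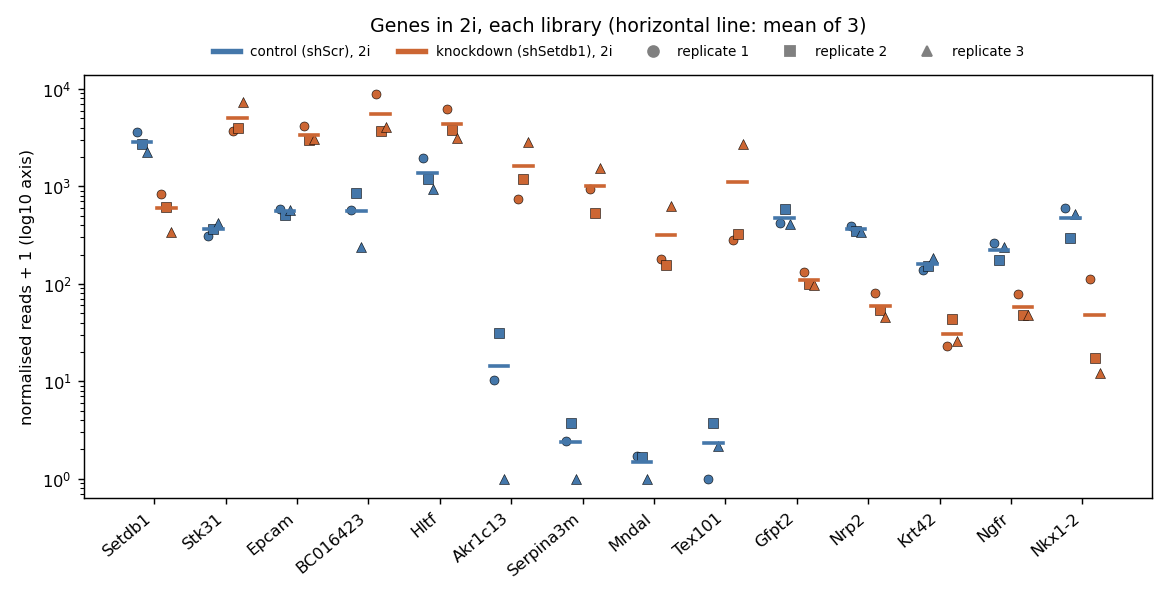
Normalised reads plus 1 of 14 genes in each library of 2i on a log10 axis, with symbols and colours as for the repeat families. Setdb1 and the 5 genes on the right lie lower in all knockdown libraries than in any control, and the genes between lie higher, those from Akr1c13 to Tex101 from control means under 15 reads.

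Germ cell genes rose in small number, and their promoters can be set side by side. In the list of meiotic genes 4 of 36 listed and 33 tested passed (median 0.98), and in the piRNA pathway list 2 of 24 listed and 21 tested (median 0.86), against a median of 0.01 for all genes. The piRNA pathway protects germ cells from retrotransposons. Stk31, a germ granule kinase-like protein, had 311, 361 and 419 normalised reads in the controls and 3736, 4004 and 7372 in the knockdown libraries and rose 13.9-fold (log2 change 3.58 ± 0.33 SE, limma adjusted p = 2.21e-05). Mael, needed for piRNA-directed silencing, had 28.2, 15.9 and 22.3 normalised reads in the controls and 369, 379.7 and 459 in the knockdown libraries (log2 change 2.96 ± 0.52 SE, limma adjusted p = 0.00698). Brdt, the bromodomain protein of the testis, had 7.22, 24.8 and 25.8 normalised reads in the controls and 261, 204 and 207 in the knockdown libraries (log2 change 2.33 ± 0.42 SE, limma adjusted p = 0.00939), a call lost without control replicate 1 (adjusted p = 0.0643). Neither Stk31, Mael nor Brdt overlapped between groups. Tex101, a surface protein of germ cells, had 0, 2.76 and 1.17 normalised reads in the controls and 283, 321 and 2696 in the knockdown libraries (log2 change 4.69 ± 0.62 SE, limma adjusted p = 0.000639), with knockdown replicate 3 far above the others. Sycp2, a part of the synaptonemal complex that joins meiotic chromosomes, had 16.6, 11.7 and 8.22 normalised reads in the controls and 103, 169 and 105 in the knockdown libraries (log2 change 1.86 ± 0.34 SE, limma adjusted p = 0.00953). Rbmy1a1, an RNA-binding protein gene of the Y chromosome, had 0, 1.38 and 7.04 normalised reads in the controls and 797, 735 and 1833 in the knockdown libraries, and its reads are uncertain because the Y chromosome holds near-identical copies. Of the spermatid markers, 4 of 6 were at 0, as given above.

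The promoter windows of these genes are shown because the letters CACGTG, the E-box that MYC-like and MGA-MAX factors recognise, were searched in all of them. Each line gives the 250 bases before the RefSeq start on GRCm38.p6, 5′ to 3′ on the strand of the gene, with CACGTG in capitals. Stk31 has 2 windows in RefSeq, of which the first is shown.
Stk31 (chr6:49395289-49395538, plus strand): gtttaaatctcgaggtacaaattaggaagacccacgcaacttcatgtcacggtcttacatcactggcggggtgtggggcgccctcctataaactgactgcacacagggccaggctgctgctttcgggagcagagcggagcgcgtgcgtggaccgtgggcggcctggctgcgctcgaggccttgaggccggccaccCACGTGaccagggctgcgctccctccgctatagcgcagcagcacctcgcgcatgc
Mael (chr1:166238745-166238994, minus strand): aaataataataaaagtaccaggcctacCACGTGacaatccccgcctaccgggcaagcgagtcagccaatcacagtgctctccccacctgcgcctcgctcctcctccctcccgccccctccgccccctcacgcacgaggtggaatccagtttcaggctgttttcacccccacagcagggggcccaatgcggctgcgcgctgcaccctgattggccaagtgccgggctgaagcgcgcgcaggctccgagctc
Brdt (chr5:107330944-107331193, plus strand): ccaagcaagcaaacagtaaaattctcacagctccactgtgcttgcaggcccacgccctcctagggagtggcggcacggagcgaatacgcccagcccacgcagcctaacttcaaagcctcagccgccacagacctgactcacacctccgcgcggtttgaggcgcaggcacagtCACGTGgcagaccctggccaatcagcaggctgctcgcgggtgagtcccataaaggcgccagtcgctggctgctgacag
Tex101 (chr7:24672051-24672300, minus strand): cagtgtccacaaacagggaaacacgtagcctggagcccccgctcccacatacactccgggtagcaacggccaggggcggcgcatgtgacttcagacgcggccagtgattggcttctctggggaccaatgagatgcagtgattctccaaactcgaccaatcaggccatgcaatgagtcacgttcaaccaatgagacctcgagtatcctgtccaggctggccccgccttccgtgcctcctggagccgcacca
Sycp2 (chr2:178407659-178407908, minus strand): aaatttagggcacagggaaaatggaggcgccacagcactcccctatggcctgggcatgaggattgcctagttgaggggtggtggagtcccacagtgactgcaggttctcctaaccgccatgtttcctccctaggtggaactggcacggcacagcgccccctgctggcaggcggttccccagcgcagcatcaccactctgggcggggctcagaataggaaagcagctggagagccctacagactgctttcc
Stk31, Mael and Brdt hold the letters, at 55, 223 and 78 bases before the start, counted from the first letter, and Tex101 and Sycp2 do not. In windows of 300 bases (250 before to 50 after a start), with a gene counted if any of its windows matched, CACGTG stood in 19 of 48 meiotic and piRNA list genes tested (39.6%), in 13 of 123 risers with a window (10.6%), in 11.8% of 10953 genes tested and in 7.15% of all 32851 windows. The letters read the same on both strands. TCCCGC, searched on both strands as an E2F-like site, stood in 11.4% of risers and 39.5% of genes tested. TATAAA, the TATA box, stood in 18.7% of risers and 9.09% of genes tested. For each gene the ratio of observed to expected CpG was taken from the window where it was highest. The median of this ratio was 0.38 in risers and 0.78 in genes tested. Among genes with a control mean under 10 normalised reads it was 0.26 for the 62 risers and 0.57 for the 1379 genes with a window. These are descriptions of letters in a window, with no test. Mouse promoters of broadly used genes are CpG-rich as a rule, and those of tissue-restricted genes often are not.

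Many genes that rose lay next to each other. Of 164 risers that could be placed in the RefSeq gene order, 53 (32.3%) had a riser as their next tested neighbour on either side, and 2.16% of all placed genes had one. The 53 formed 19 runs, and this share was not tested. Genes of such a run can share reads where they are near-identical copies. On the aldo-keto reductase cluster, whose enzymes reduce steroids and other carbonyls, Akr1c13 had 9.39, 30.3 and 0 normalised reads in the controls and 742, 1191 and 2873 in the knockdown libraries (log2 change 5.17 ± 0.52 SE, limma adjusted p = 4.66e-05). Akr1c21 went from 0.722, 1.38 and 0 to 436, 411 and 1186 (4.67) and Akr1c12 from 2.17, 16.6 and 0 to 178, 318 and 561 (3.49). Akr1c18 changed by 2.91 (a ratio of means of 21.1-fold, and 8.37-fold without knockdown replicate 3), a call lost without control replicate 2 (adjusted p = 0.0598). In all 4 of 9 Akr1c genes in the table, of which 6 were tested, rose, and knockdown replicate 3 was the highest library for each. Asb13, a gene of ankyrin repeats and a SOCS box outside the cluster list, had 19.5, 29.7 and 1.17 normalised reads in the controls and 1287, 381 and 1156 in the knockdown libraries (log2 change 4.24 ± 0.48 SE, limma adjusted p = 0.000127).

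The Serpina3 genes encode secreted inhibitors of serine proteases. Serpina3m had 1.44, 2.76 and 0 normalised reads in the controls and 946, 531 and 1546 in the knockdown libraries (log2 change 5.17 ± 0.38 SE, limma adjusted p = 4.75e-06), and Serpina3k had 2.17, 2.76 and 0 normalised reads in the controls and 191, 105 and 279 in the knockdown libraries (log2 change 3.02 ± 0.36 SE, limma adjusted p = 0.000236). Serpina3n went from 0 in all controls to 23.8, 10.2 and 111 and lost its call without control replicate 1, 2 or 3 or knockdown replicate 3 (adjusted p 0.123 to 0.155). Serpinb9, an inhibitor of granzyme B elsewhere in the family, had 42.6, 22.8 and 17.6 normalised reads in the controls and 251, 172 and 445 in the knockdown libraries (2.32). Of 61 Serpin genes 21 were tested and 4 rose (median 0.56). Of 34 genes of the liver secretory list 11 were tested and 4 rose. Beside both Serpina3 genes they were the kininogens Kng2, from 0, 2.07 and 0 to 322, 317 and 1103 (4.45), and its neighbour Kng1 (2.07), whose call was lost without control replicate 1 (adjusted p = 0.0549). Of the hepatocyte markers, 4 of 8 were at 0, as given above.

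Fatty acyl-CoA thioesterases of 1 cluster were the 3 that rose among 13 Acot genes, of which 11 were tested. Acot1 had 52, 56.6 and 73.9 normalised reads in the controls and 881, 1140.1 and 1424 in the knockdown libraries, 18.9-fold more (log2 change 3.56 ± 0.31 SE, limma adjusted p = 1.69e-05), and Acot2 had 47.7, 80 and 24.6 normalised reads in the controls and 308, 376 and 539 in the knockdown libraries (log2 change 2.37 ± 0.32 SE, limma adjusted p = 0.000885). Acot3 stood at 1.74 and lost its call without control replicate 1, 2 or 3 or knockdown replicate 3 (adjusted p 0.0635 to 0.136). Matrix metalloproteases of 1 cluster were among the largest changes. Mmp12 had 3.61, 2.76 and 0 normalised reads in the controls and 1524, 969.6 and 3274 in the knockdown libraries (log2 change 5.95 ± 0.43 SE, limma adjusted p = 4.75e-06), and Mmp1b was at 0 in the controls and at 225, 249.7 and 708 after knockdown (4.15). In the extracellular matrix list 4 of 47 rose, of which 27 were tested (median 0.21). Beside these were the collagen-binding proteoglycan Lum, from 0, 2.76 and 0 to 736, 102 and 542 (4.03), and Cthrc1 (1.71), a call lost without control replicate 1, 2 or 3 or knockdown replicate 1 or 3 (adjusted p 0.068 to 0.104). Lum was the only 1 of 3 fibroblast markers tested that passed. The sum of 8 fibroblast markers was 43.4 to 57.2 normalised reads in the controls and 129.95 to 802 in the knockdown libraries, and Col1a1, Col1a2 and Col3a1 stayed under 12 reads in each library.

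The Ifi200 cluster encodes PYHIN proteins, some of which sense DNA, and 4 of its 10 genes rose, of which 5 were tested. Mndal had 0.722, 0.69 and 0 normalised reads in the controls and 178, 155 and 625 in the knockdown libraries (log2 change 3.64 ± 0.41 SE, limma adjusted p = 0.000127), and Ifi204 was at 0 in the controls and at 70.7, 72.1 and 301 after knockdown (2.88). Mnda (Ifi211) and Ifi205 changed by 1.67 and 1.56, and both lost their calls without any 1 control or without knockdown replicate 3 (adjusted p 0.0589 to 0.0939). In the wider interferon and double-stranded RNA list 3 of 47 rose, of which 31 were tested (median 0.58). Rtp4, a chaperone and antiviral factor, went from 0 in the controls to 68.4, 26.4 and 221 (2.47). Bst2 (1.99) and Mx2 (1.56) lost their calls without any 1 control or without knockdown replicate 3 (adjusted p 0.0679 to 0.167), and Mx2 also without knockdown replicate 2 (0.0902). On the Clec2 cluster, whose lectin-like proteins are ligands of natural killer cell receptors, Clec2i was at 0 in the controls and at 1263, 337 and 454 after knockdown (4.84), and Clec2g had 0, 1.38 and 0 normalised reads in the controls and 174, 98.5 and 263 in the knockdown libraries (3.14). Clec2h was also at 0 and then at 77.6, 18.3 and 47 (1.89). All 3 kept their calls without any 1 library, which is a description for genes at or near 0 in the controls. They were the 3 of 32 Clec genes, of which 7 were tested, that rose, and 1.21% of all genes tested rose. Risers outside the lists, chosen after their values were seen, included the peptidoglycan sensor Nod1 (2.53), the oxidase subunit Cybb (2.82), the ubiquitin-like ISG15 pathway enzyme Ube2l6 (3.05), the GTPase Gbp9 (2.48) and Casp8 (2.25), each with its call kept without any 1 library. Il1r1, Klrb1a and Cd28 rose too and lost their calls without 4 of the 6 libraries each (adjusted p 0.0599 to 0.185). Fcgr3, an immunoglobulin receptor, had 12.3, 3.45 and 5.87 normalised reads in the controls and 454, 268 and 1349 in the knockdown libraries (log2 change 3.99 ± 0.48 SE, limma adjusted p = 0.000236). Of 10 genes of the macrophage list 2 were tested and 0 passed, so most of the list could not pass. Its 9 genes in the table summed to 67.2, 80.0 and 129 normalised reads in the controls and 90.7, 56.9 and 199 in the knockdown libraries. For the 7 macrophage markers described above, the summed level was 62.8 to 129 in the controls and 52.8 to 160 in the knockdown libraries.

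Of 91 cytochrome P450 genes 29 were tested and 4 rose (median 0.59). Cyp2b23 had 44.8, 82.8 and 18.8 normalised reads in the controls and 1217, 439 and 644 in the knockdown libraries (log2 change 3.19 ± 0.46 SE, limma adjusted p = 0.00132), and Cyp2a12, with 1 control read, reached 108, 45.7 and 74.7 (2.27). Cyp2c55 had 2.17, 7.59 and 10.6 normalised reads in the controls and 151, 211 and 2638 in the knockdown libraries (3.78), with a ratio of means of 148-fold, and 26.8-fold without knockdown replicate 3. Its call was lost without control replicate 1 or 2 (adjusted p 0.0505 to 0.0666). Cyp2r1, a vitamin D hydroxylase, passed with all libraries and lost its call without control replicate 1, 2 or 3 or knockdown replicate 2 or 3 (adjusted p 0.0905 to 0.177). Of 353 solute carrier genes 227 were tested and 5 rose (median 0.02), with Slc22a16 at 0 in the controls and 32.3, 70.1 and 191 after knockdown (2.46). Of 368 genes named Zfp 342 were tested and 3 rose (median 0.07). They were Zfp869, Zfp54 and Zfp37 (1.99, 1.98 and 1.19), and each lost its call without 4 or more of the 6 libraries (adjusted p 0.0575 to 0.173). Of 1087 olfactory receptors 5 were tested, and Olfr901 rose, from 0 in the controls to 32.3, 62.9 and 49.8 (1.96).

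Further large changes belonged to no list. Akd1 (Ak9), with adenylate kinase domains, had 5.06, 6.9 and 0 normalised reads in the controls and 428, 934 and 1034 in the knockdown libraries (log2 change 4.68 ± 0.43 SE, limma adjusted p = 1.76e-05). Mep1b, a subunit of the meprin protease, had 233, 93.8 and 49.3 normalised reads in the controls and 3432, 1906 and 1927 in the knockdown libraries (limma adjusted p = 9.32e-05), and Colec12, a scavenger receptor, had 46.9, 43.4 and 31.7 normalised reads in the controls and 1257, 585 and 600.1 in the knockdown libraries (log2 change 3.37 ± 0.35 SE, limma adjusted p = 5.62e-05). In all of these the groups were far apart. Of the transcripts C130073F10Rik, Gm16685 and 2810429I04Rik, the log2 changes were 3.95, 4.33 and 3.43, and Usp9y, a deubiquitinase of the Y chromosome, went from 0, 14.5 and 0 to 183, 296 and 926 (3.88).

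Genes of the 2-cell stage rose in 3 of 29 in the table, of which 26 were tested, with the highest median of the curated lists (1.87). All 26 changes were positive in 2i, against 51.2% of all genes tested. All knockdown libraries exceeded all controls for 8 of the 26, against 6.33% of all genes tested. The list summed to 798, 347 and 333 normalised reads in the controls and 12451, 1551 and 5849 in the knockdown libraries. Members that are near-identical copies are not separate observations. Gm5662 had 136, 61.4 and 31.7 normalised reads in the controls and 2992, 528 and 1833 in the knockdown libraries (log2 change 3.79 ± 0.74 SE, limma adjusted p = 0.0158), Gm2016 had 123, 39.3 and 18.8 normalised reads in the controls and 1905, 394 and 1178 in the knockdown libraries (log2 change 3.53 ± 0.74 SE, limma adjusted p = 0.0257), and Dub1a (Usp17lb) had 7.94, 6.21 and 0 normalised reads in the controls and 231, 53.8 and 274 in the knockdown libraries (log2 change 2.65 ± 0.51 SE, limma adjusted p = 0.0136). In each of the 3 the values of knockdown replicate 2 were the lowest of the knockdown, as for MERVL-int. That library was also the lowest of the knockdown for 77 of the 176 gene risers and 44 of the 114 repeat risers. Gm5662 lost its call without control replicate 2 or 3 or knockdown replicate 3 (adjusted p 0.0721 to 0.0807), Gm2016 without control replicate 2 or 3 or knockdown replicate 1 or 3 (adjusted p 0.0573 to 0.124), and Dub1a without control replicate 3 or knockdown replicate 3 (adjusted p 0.0688 to 0.0811). Each belongs to a set of near-identical copies, among which the counting could split reads. The Fthl17 genes are ferritin-like genes of the X chromosome and were chosen after their values were seen. In all 5 that were tested every knockdown library lay above every control, and 4 of the 5 passed. These 4 ran from 2.69 for Gm14458 (Fthl17d) to 3.25 for Gm14511 (Fthl17c). Gm14511 had 0.722, 22.1 and 39.9 normalised reads in the controls and 122, 558 and 990 in the knockdown libraries, lowest in replicate 1 of both groups. Fthl17 and Gm5634 (Fthl17b) were between, at 2.90 and 2.88, and each of the 4 lost its call without control replicate 1 or knockdown replicate 3 (adjusted p 0.0540 to 0.168). These copies are alike as well.

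The 7 genes that fell beside Setdb1 were of low to middle level, and 4 of them stood in the list of axon guidance and neural receptor genes. In that list 4 of 38 in the table, of which 30 were tested, fell (median −0.26), against 0.0552% of all genes tested. The list was chosen with earlier results of these data known, so this count is a description and does not single out a class of genes. Nkx1-2, a homeobox gene of the primitive streak and early neural tissue, had 592, 291 and 523 normalised reads in the controls and 112, 16.2 and 11.1 in the knockdown libraries (log2 change −2.82 ± 0.45 SE, limma adjusted p = 0.00313). Nrp2, a neuropilin that binds semaphorins, had 391, 349.6 and 342 normalised reads in the controls and 79.2, 52.8 and 44.2 in the knockdown libraries (log2 change −2.06 ± 0.30 SE, limma adjusted p = 0.00161). Gfpt2, an enzyme of hexosamine synthesis, had 425, 584 and 409.6 normalised reads in the controls and 131, 98.5 and 96.8 in the knockdown libraries (log2 change −1.78 ± 0.28 SE, limma adjusted p = 0.00341). In all 3 every knockdown library lay below every control, and the calls held without any 1 library. The somatostatin receptor Sstr2 fell from 28.9, 42.1 and 119 to 0.769, 9.14 and 0 (−1.71) and lost its call without control replicate 2 or 3 or knockdown replicate 1 or 3 (adjusted p 0.0704 to 0.179). The natriuretic peptide receptor Npr3 had 186, 103 and 244 normalised reads in the controls and 50, 37.6 and 24.9 in the knockdown libraries (−1.51), a call lost without control replicate 1 or 3 or knockdown replicate 2 or 3 (adjusted p 0.0902 to 0.181). The neurotrophin receptor Ngfr had 259, 173 and 238 normalised reads in the controls and 76.9, 46.7 and 47 in the knockdown libraries (−1.48), a call lost without control replicate 1, 2 or 3 or knockdown replicate 2 or 3 (adjusted p 0.0721 to 0.187). The keratin Krt42 had 139, 152 and 183 normalised reads in the controls and 22.3, 42.6 and 24.9 in the knockdown libraries, a call lost without control replicate 1, 2 or 3 or knockdown replicate 1 or 3 (adjusted p 0.052 to 0.0967). None of these 4 overlapped between the groups. In the Wnt response list, where Nkx1-2 and Ngfr stand too, the median of the 21 tested was −0.44. Of its changes 7 were positive, against 51.2% of all genes tested. All knockdown libraries lay below all controls for 5 of the 21, against 4.33% of all genes tested, and above them for 1. In this list 1 of 21 rose, the Wnt inhibitor Apcdd1 (1.73), and its call was lost without any 1 of the 6 libraries (limma adjusted p 0.0504 to 0.206).

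Pluripotency genes did not pass. None of 24 naive and 18 general pluripotency genes did, with medians of −0.23 and −0.26. The naive genes ran from −1.10 to 2.89 and the general ones from −0.89 to 0.25. Positive changes were found for 9 of the 24 and 2 of the 18, against 51.2% of all genes tested. In each list 1 gene had all knockdown libraries below all controls, against 4.33% of all genes tested. Pou5f1 had 12245, 7373 and 10450.5 normalised reads in the controls and 9358, 12847 and 13262 in the knockdown libraries (0.25), and Sox2 had 6841, 7496 and 8034 normalised reads in the controls and 6038, 9197 and 4842 in the knockdown libraries (−0.20). Nanog stood at −0.10, and Esrrb had 4094, 5556 and 3249 normalised reads in the controls and 3712, 2387 and 1955 in the knockdown libraries (−0.69, limma adjusted p = 0.617). In each the groups overlapped. No member passed in the primed (19 tested), MEK-ERK response (22), p53 target (28), ATF4 and unfolded protein response (26), imprinted (41), endoderm (17) and trophoblast (16) lists, with medians from −0.31 to 0.16. Of 73 genes for ribosomal proteins 0 passed, and their median was 0.53. Their summed level was highest in control replicate 3 and knockdown replicates 2 and 3, the 3 libraries with the largest structural RNA shares, and the part of that share in it was not tested. Among the genes of H3K9 methylation and provirus silencing, Setdb1 fell and Atf7ip2, a relative of the SETDB1 partner ATF7IP, was higher at 1.36 (limma adjusted p = 0.0453), a call lost without control replicate 1, 2 or 3 or knockdown replicate 2 or 3 (adjusted p 0.0726 to 0.261). The median of the 29 tested was −0.17.

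**Figure D5:**
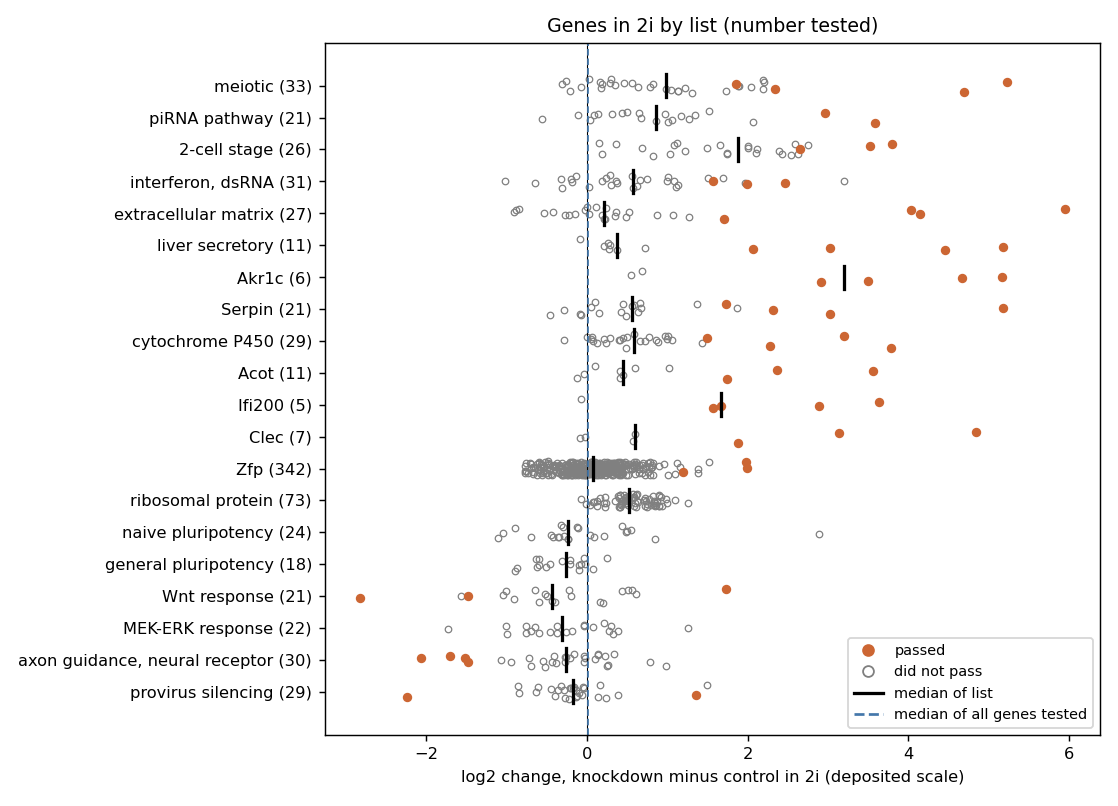
Log2 change in 2i of each gene tested in 20 lists or name families, with genes that passed filled, list medians as black bars and the median of all genes (0.01) as a dashed line. The 2-cell list has the highest median of the curated lists (1.87), the pluripotency lists hold no filled point, and the 4 filled points of the neural receptor list lie below 0.

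Against serum, no gene passed the test of the difference between media with limma (0.0% of 14487 genes, 404 at an unadjusted p under 0.05). Same-numbered gene libraries of serum, unlike those of 2i, all deviated together (correlations 0.582, 0.234 and 0.510). With a replicate block within medium 2 genes passed, the 2-cell genes Gm5662 and Gm2016 (differences of 4.34 ± 0.55 SE and 3.99 ± 0.53 SE, limma adjusted p = 0.0202 for both). In serum their changes were −0.55 and −0.46, and their serum controls had 2089, 11546 and 4555 and 1284, 7394 and 2716 normalised reads, above every 2i control. Of the 176 risers 59 also rose in serum, 33.5% of those in 2i and 67.8% of the 87 that rose in serum (0.601% of genes). The median change of the 176 was 2.17 in 2i and 1.26 in serum. Of the 114 repeat risers the median was 1.52 in 2i and 0.83 in serum. These genes and families were chosen for their change in 2i, so the larger value there is a description. Of the genes that fell, Setdb1 alone was shared.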

How the data were processed

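Directional libraries came from total RNA after removal of ribosomal RNA, per the labels' protocols. Trim Galore 0.3.3 and TopHat2 2.0.9 were used with the build mm9, per the submitters' processing notes. For the counter, the annotation and reads with several positions, the method is not given in the sources used here, so reads of similar repeat copies may be shared between families. The deposited values are log2-scale variance-stabilised values that the authors made with DESeq2, per the submitters' processing notes.

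From these, reads were recovered by inverting the transformation, and 100% came out whole within 0.01 read. Normalised reads are those reads over the size factor. Fold changes are ratios of means of normalised reads, and log2 changes are differences of the deposited values, which understate changes of low features. Each table was tested with limma 3.58.1 in R 4.3.3 over all 12 libraries, with 1 mean for each of 4 groups, a mean-variance trend and 8 residual degrees of freedom. Features with a mean at least 0.5 above the lowest value of the table entered, and p-values were adjusted by the Benjamini-Hochberg method over all of them, with a threshold of 0.05. Gene and family lists, and the rule for the genes named, were chosen with earlier results of these data known, so the lists are described by counts and medians. The rule took Setdb1, rises of rank 11 to 30, all falls, the 8 risers of highest level and up to 4 members of each list. One gene the rule named is not reported here. On simulated libraries of 15313 genes the test recovered 7.46% of 67 2-fold, 74.6% of 67 4-fold and 98.5% of 66 8-fold changes. With 1112 repeat families it recovered 45, 95 and 100%, of 20 changes at each fold. Changes were set only in features above a minimum mean level, with 1 dispersion for all features of a table. The rates therefore do not cover genes with few or no control reads. Promoter windows are those of RefSeq on GRCm38.p6, and 10953 of 14487 genes tested matched by symbol. Alternatives covered filters, tools, scalings, blocks and each library left out.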

Additional observations from a re-analysis of the deposited data

Results flagged for a closer look

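The change on knockdown differed between media for the IAPEz element by a test of the difference itself. For IAPEz-int the change in 2i minus that in serum was 2.28 (limma adjusted p = 0.0488), and for its LTR IAPLTR1_Mm it was 2.38 (limma adjusted p = 0.0110). All 3 knockdown libraries were above all 3 controls in both media for IAPEz-int, and its calls under other scalings and without single libraries are given with the result above.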

How the results depend on the processing

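Of the 184 genes that passed, 61 (57 up, 4 down) did so in all 16 alternatives, and of 114 repeat families 58 rose in every alternative. Gene calls numbered 88 with the 6 libraries of 2i alone, 102 by voom with TMM factors, 114 by voom with the table's size factors and 99 to 253 with 1 library left out. Repeat calls numbered 75 with the 2i libraries alone, 337 with gene table size factors and 71 to 120 with 1 library left out. By the rule that every pair must exceed 0.1, replicate numbers were not taken to pair the 2i libraries: deviations of same-numbered libraries correlated at 0.456, 0.057 and 0.524 over genes and 0.397, −0.025 and 0.456 over repeats, and replicates 1 and 3, not 2, correlated best with their own number. In serum the correlations were 0.582, 0.234 and 0.510 over genes and 0.209, 0.042 and 0.239 over repeats, each best with its own number. With a replicate block 321 genes passed, and 425 with a replicate block within medium, and 153 and 168 repeat families. For the difference between media, the block within medium gave 2 genes and omission of 1 library 0 to 1. For repeats that test gave 1 family with no filter, 0 with no mean-variance trend, median centring, quantile normalisation, voom with TMM factors or structural RNA left out, 6 with the replicate block, 21 with the block within medium, and 0 to 2 with 1 library left out. Among features that did not pass, signs turned as follows. B2_Mm1a stood at −0.41 after quantile normalisation. FordPrefect stood at −0.19 after median centring, −0.40 after quantile normalisation, −0.087 by voom with TMM factors, −0.15 without structural RNA, and −0.021 to 0.27 with 1 library left out. MMSAT4 stood at −0.26, −0.51, −0.28 and −0.22 in the same settings and at −0.25 to 0.54 with 1 library left out. With 1 library left out Nanog ranged from −0.29 to 0.054 and Sox2 from −0.46 to 0.0023. The cause of these changes was not tested. Gene reads per library of 2i ran from 4821181 to 15509401, and the effect of depth on the calls was not tested.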
